A study of Mus musculus with 4 samples.

Results

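The genes described here are 9 that carry or organise chloride, bicarbonate and sodium-proton transport across epithelia, namely Cftr, Ano1, Slc12a2, Slc9a2, Slc9a3, Slc9a4, Slc9a3r1, Slc26a3 and Slc26a6. They were taken by symbol from a count table of 34866 genes, and all 9 were in it and passed the low-count filter. The set was chosen by their transport role with the measured difference in expression between the genotypes already known, so their values in that comparison are a description and support nothing. RNA was sequenced from gastric mucosa of the corpus of Muc6 +/+ mice, called wild type here, and of Muc6 -/- mice, called knockout, with 2 libraries each. Muc6 encodes a gland mucin of the stomach that forms gels, and the study asked how its loss relates to gastric carcinogenesis. Strain, age and whether libraries of a genotype came from separate mice are not given in the labels used here, so the spread between libraries may be technical.

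Fluid and acid secretion share a common set of transporters. Slc12a2 (NKCC1) brings chloride into the cell across the basolateral membrane, and Cftr, a cAMP-regulated channel, and Ano1 (TMEM16A), a calcium-activated channel, let chloride and bicarbonate leave. Sodium-proton exchangers of the SLC9 family move protons out of the cell in exchange for sodium. Anion exchangers of the SLC26 family swap chloride for bicarbonate, and the PDZ scaffold Slc9a3r1 (NHERF1) ties several of these proteins to the cytoskeleton under the apical membrane. In the corpus, parietal cells use many of them to secrete acid, while Cftr is better known from secretory ducts, the intestine and the distal stomach.

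Library totals ranged from 20327745 to 27946423 counts. The targeted gene Muc6 was counted 8542 and 6000 times in wild type and 0 and 10 times in the knockout libraries. Parietal, chief and pit cell markers of the corpus were abundant in wild type. The 4 Y-linked genes in the table summed to 136 and 121 CPM in wild-type mucosa against 1.45 and 2.44 CPM in knockout mucosa, so sex, which the labels used here do not give, and genotype cannot be told apart in any value below. CPM is the count divided by the scaled library size and multiplied by 1000000. Knockout 1 stood apart in several antral genes. Pdx1, a regulator of the distal stomach, was at 59 CPM in knockout 1 and 2.52 CPM in knockout 2, against 0.282 and 0.0521 CPM in wild type. Nkx6-3, an antral regulator, was at 121.8 CPM in knockout 1 and at 0.363, 0.313 and 0.454 CPM in wild type 1, wild type 2 and knockout 2. The gastrin gene Gast had 218 counts in knockout 1 and 1 or 0 in the other libraries. Fibroblast markers separated the libraries another way, at 44.3 and 62.1 CPM in the libraries numbered 1 of wild type and knockout and at 469.9 and 440.8 CPM in those numbered 2.

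In knockout mucosa, 3 of the 9 genes, Cftr, Slc9a3 and Ano1, were higher in both libraries than in either wild-type library, and 3, Slc26a6, Slc12a2 and Slc9a4, were lower in both. Among all 14067 genes tested, 26.3% were higher and 23.8% lower without overlap, so these counts lie near those of all genes. The genotypes overlapped for Slc9a2, Slc9a3r1 and Slc26a3. The median log2 fold change of the 9 genes was 0.06, with a range from -1.75 to 7.97, against a median of 0.00 over all genes tested. No member passed edgeR's quasi-likelihood test at an adjusted p of 0.05, where 0% of all genes did, and adjusted p-values of the members lay between 0.122 and 0.969. At an unadjusted p of 0.05 the same fit held 5 members, where it held 15.9% of all genes. DESeq2 called 5 members (Cftr, Slc9a3, Slc12a2, Slc26a6 and Ano1) and 7.57% of all genes, and limma voom called 0 members and 0% of genes. Without knockout 2, edgeR called Cftr, Slc9a3, Slc26a6 and Ano1 and 5.29% of all genes. That fit has 1 knockout library, which is assumed to vary like the wild-type pair, so these calls hold no spread between knockout libraries. Without wild type 1, 6 members lay higher without overlap, where 40.1% of all genes did, and without wild type 2, 5 lay lower, where 35% did.

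**Figure D1:**
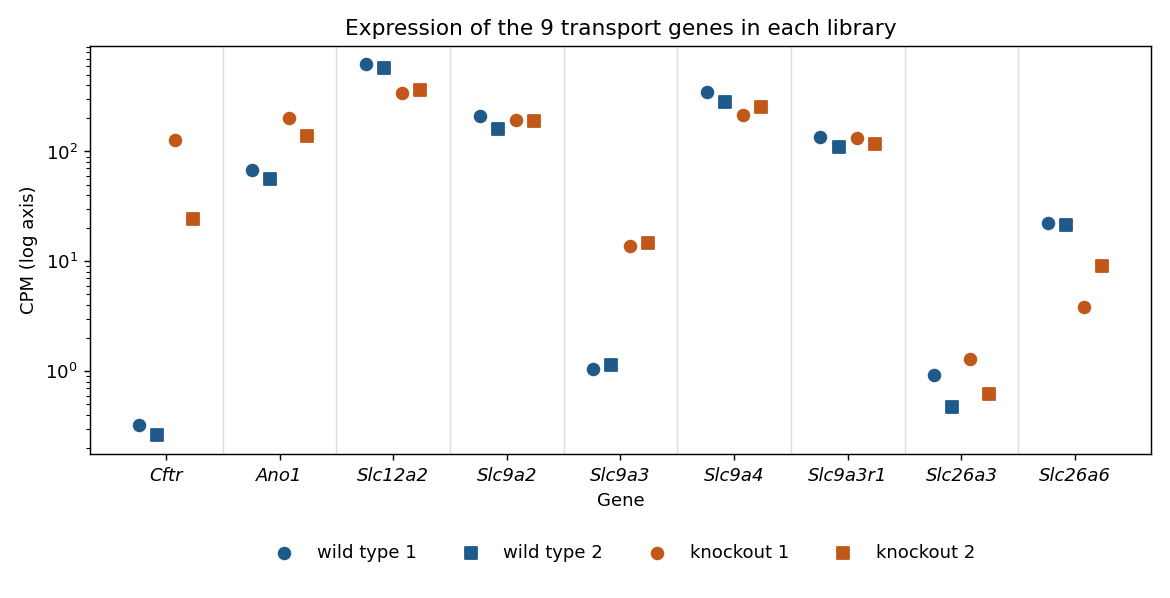
CPM of each of the 9 genes (log axis) in wild type 1 and 2 (blue) and knockout 1 and 2 (orange), with circles for the libraries numbered 1 and squares for those numbered 2. Cftr was at 0.323 and 0.260 CPM in the blue libraries and at 126.5 and 24.1 CPM in the orange ones, while Slc9a2 and Slc9a3r1 overlapped between the genotypes.

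Levels per length of annotated exon ordered the genes within each library. In CPM per kilobase, Slc9a4 led in wild type at 76.6 and 61.3, followed by Slc9a3r1 at 70.3 and 57.5 and Slc12a2 at 56.7 and 52.5. The ranges of Slc9a4 and Slc9a3r1 overlapped and those of Slc9a3r1 and Slc12a2 nearly met, while Slc9a2 at 30.0 and 23.1 lay clear below them. Ano1 came next at 10.8 and 8.94, then Slc26a6 at 4.09 and 3.92. Slc9a3 at 0.191 and 0.208, Slc26a3 at 0.146 and 0.0736 and Cftr at 0.0416 and 0.0335 CPM per kilobase were the lowest 3, each on 26 counts or fewer. In knockout, Slc9a3r1 led at 69.2 and 60.8 and Slc9a4 followed at 46.9 and 56.0. Ano1 at 31.99 and 22.1, Slc12a2 at 31.1 and 33.0 and Slc9a2 at 27.8 and 27.3 overlapped or lay close. Cftr stood sixth at 16.3 and 3.11, and Slc26a3 was last at 0.204 and 0.0973 CPM per kilobase. The ratio of Slc12a2, which loads chloride, to Cftr, which releases it, was 1365 and 1566 per length in wild type versus 1.91 and 10.6 in knockout 1 and 2.

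Cftr is shown first because its difference was the largest of the 9. Cftr lies on the plus strand of chromosome 6 at 18170687 to 18322768 (ENSMUSG00000041301.15, mm10). It was counted 8 and 5 times in wild type versus 2822 and 584 times in knockout 1 and 2, or 0.323 and 0.260 CPM versus 126.5 and 24.1 CPM. The gene was thus close to the detection limit in both wild-type libraries and well counted in both knockout libraries, with no overlap. It passed the low-count filter, whose minimum is 10 counts, only through the knockout libraries. The log2 fold change came to 7.97 ± 1.20 (SE, n = 2 per group), and its 95% interval ran from 4.66 to 11.28. The ratio of summed counts was 248-fold, and the exact 95% interval of 145 to 466 covers counting error only. The knockout libraries differed from each other by 2.39 log2 units. Without knockout 1, the library with antral transcripts, the log2 fold change was 6.29, and without knockout 2 it was 8.67.

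The pattern of Cftr over the 4 libraries was nearest to those of Fcgbp, Trim29 and Krt7 among 13439 genes compared, as measured by the root mean square difference of centred log2 CPM over the 4 libraries (0.301, 0.316 and 0.374). Krt7, a keratin of simple epithelia, was at 4.72 and 6.56 CPM versus 2173 and 247 CPM. Several marker lists were higher too. Over all genes tested, 26.3% were higher and 23.8% lower without overlap. Marker lists also hold genes that failed the low-count filter, which those shares leave out. The 9 squamous forestomach markers summed to 0.888 and 0.260 CPM in the wild-type libraries and to 197.7 and 13.8 CPM in knockout 1 and 2, with 5 higher without overlap and Trp63, Sprr3 and Krtdap at 0 in all libraries. The 11 intestinal markers summed to 168 and 133 CPM versus 993 and 286 CPM, with 5 higher and 2 lower without overlap. Their defining regulator Cdx2 had 9 counts in knockout 1 and 0 elsewhere, and Cdx1 had 1 count in wild type 1 and 0 elsewhere. The 8 markers of mucous neck cells and SPEM (spasmolytic polypeptide-expressing metaplasia, a lineage seen after parietal cell loss) summed to 2380 and 1715 CPM versus 16350 and 10760 CPM, with 7 higher and 1 lower. The part of these cells in the value of Cftr was not tested. Of 8 pancreas markers, 1 was higher and 3 lower without overlap, and of the lower ones Cela2a and Ctrb1 failed the filter. Prss2 was at 0 in all libraries and Cpa1 had 3 counts at most. Cela1, the higher one, was at 22.8 and 19.9 CPM versus 116 and 54.5 CPM and made up most of that list's sum. In bulk tissue, fewer cells of a type and less RNA per cell cannot be told apart.

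The promoters of the 3 genes that were higher in both knockout libraries are shown for comparison of their sequence. Each is the run of 250 bases before the start in RefSeq (GRCm38.p6), 5′ to 3′ on the gene's strand, with motif matches in capitals. Cftr lies at chr6:18170437-18170686 (plus strand), Slc9a3 at chr13:74121163-74121412 (plus strand) and Ano1 at chr7:144738574-144738823 (minus strand). The Ano1 stretch lies inside the gene span annotated in GENCODE (144588549 to 144751974), so its RefSeq start is not the GENCODE gene start.
Cftr: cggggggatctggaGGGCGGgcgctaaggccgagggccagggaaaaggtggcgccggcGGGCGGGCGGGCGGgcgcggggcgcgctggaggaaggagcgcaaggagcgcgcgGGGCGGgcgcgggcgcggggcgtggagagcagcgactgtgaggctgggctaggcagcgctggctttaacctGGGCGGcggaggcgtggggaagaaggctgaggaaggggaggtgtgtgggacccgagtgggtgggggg
Slc9a3: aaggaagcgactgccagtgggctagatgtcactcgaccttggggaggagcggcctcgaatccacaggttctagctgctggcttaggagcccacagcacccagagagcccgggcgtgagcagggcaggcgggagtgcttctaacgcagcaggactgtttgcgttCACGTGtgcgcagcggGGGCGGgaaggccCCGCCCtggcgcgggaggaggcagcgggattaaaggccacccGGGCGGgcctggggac
Ano1: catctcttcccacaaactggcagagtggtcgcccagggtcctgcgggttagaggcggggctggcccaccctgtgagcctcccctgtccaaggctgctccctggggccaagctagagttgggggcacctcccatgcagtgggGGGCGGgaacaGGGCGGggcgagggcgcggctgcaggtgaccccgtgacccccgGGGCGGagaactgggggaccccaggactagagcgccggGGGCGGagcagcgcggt
The motifs searched on both strands were the TATA box (TATAAA), the CCAAT box (CCAAT), the GC box (GGGCGG), the cAMP response element (TGACGTCA), the AP-1 site (TGACTCA) and an E box (CACGTG). The Cftr promoter held 6 GC boxes, of which the 3 between positions -192 and -179 overlap each other, and as many or more were in 0.886% of the 32851 RefSeq promoters of the same length. Ano1 held 4 (as many or more in 4.09%) and Slc9a3 held 3 (8.47%). Slc9a3 also held an E box at -87 to -82, a motif in 6.02% of all promoters. GC content was 76.4% for Cftr, 67.6% for Slc9a3 and 72% for Ano1, against a median of 52.4% over all promoters. Of the other members, Slc26a3 had a GC content of 38.8%, no GC box and a TATA box at -30 to -25, a motif in 12.4% of promoters. Slc26a6 had 53.2% and 1 GC box. Their stretches (chr12:31437969-31438218 and chr9:108853793-108854042) also lie inside the GENCODE gene spans, and positions count from the RefSeq start. Slc9a3r1, whose level did not separate the genotypes, held 3 GC boxes at a GC content of 62.8%. These matches are descriptions of letters, and binding was not measured. Promoters of Slc9a2 and of Slc9a4 and Slc12a2, which were lower without overlap, were not examined.

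Ano1 (ENSMUSG00000031075.18, minus strand of chromosome 7 at 144588549 to 144751974, mm10) is the calcium-activated chloride channel gene and a marker of interstitial cells of Cajal, the pacemaker cells of gut muscle. Wild-type libraries held 1675 and 1072 counts of it and knockout libraries 4455 and 3334, or 67.6 and 55.8 CPM versus 199.7 and 137.7 CPM. Both knockout libraries were above both wild-type libraries, with knockout 1 the highest. The log2 fold change came to 1.45 ± 0.26 (SE, n = 2 per group), and without knockout 1 it was 1.12. The list of 6 markers of interstitial cells of Cajal summed to 80.4 and 115 CPM versus 20.4 and 52.7 CPM. Most of that sum was Kit, a receptor kinase gene also active in other cells, at 73.8 and 83.8 CPM versus 12.7 and 33.0 CPM. Of the other 5 markers, Thbs4 was higher on 6 counts or fewer per library, and 4 overlapped, among them Etv1 at 1.78 and 7.76 CPM versus 4.48 and 5.08 CPM. The part of these cells in the value of Ano1 was not tested. Smooth muscle markers overlapped between the genotypes, at 338 and 2062 CPM versus 455 and 2143 CPM. The pattern of Ano1 was nearest to that of Cd9, Trim7 and Clu (root mean square differences of 0.0459, 0.0533 and 0.0608 log2 units over the 4 libraries). Clu, the clusterin gene, was at 1319 and 985.7 CPM versus 3519 and 2559 CPM and belongs to the mucous neck and SPEM list.

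Ano1 lies 2.93 Mb from Muc6, the disrupted gene, on the same chromosome. Of 36 tested genes between the pair, 12 (33.3%) were higher and 6 (16.7%) lower without overlap, where 26.3% and 23.8% of all genes were, and their median log2 fold change was 0.08. Whether sequence carried along with the Muc6 allele bears on Ano1 was not tested.

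Slc12a2, the basolateral cotransporter that brings chloride into cells, was lower in knockout. Slc12a2 (ENSMUSG00000024597.10, chromosome 18 at 57878678 to 57946821, mm10) was at 619 and 573.5 CPM in wild-type mucosa against 339.6 and 360.4 CPM in knockout mucosa. The libraries of a genotype lay close together, and the genotypes did not overlap. The means were 596 ± 32.4 CPM and 350 ± 14.7 CPM (SD, n = 2 per group), and the log2 fold change was -0.77 ± 0.20 (SE). Leaving out knockout 1 gave -0.77 as well. Its nearest patterns were those of Sdha, Znrf2 and Cdkn2b (root mean square differences of 0.0261, 0.0311 and 0.0326 log2 units). Sdha, a subunit of mitochondrial complex II, was at 447.7 and 406 CPM versus 248 and 268 CPM.

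**Figure D2:**
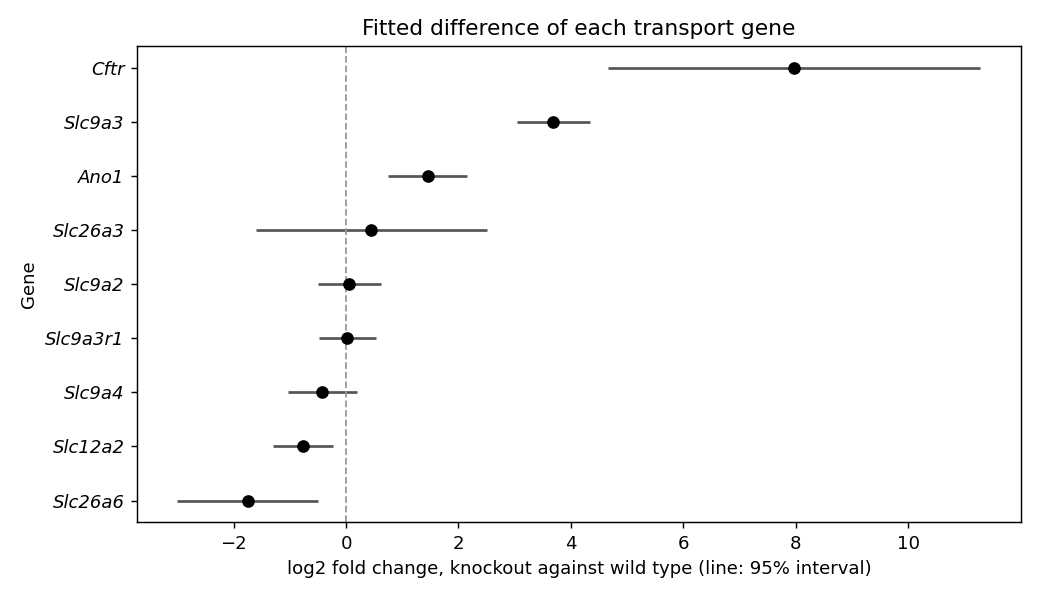
Log2 fold change of each gene in knockout against wild type from edgeR's fit across all genes (points), with the 95% interval of the fit (lines) and 0 marked by a dashed line. The intervals of Cftr, Slc9a3 and Ano1 lie above 0 and those of Slc12a2 and Slc26a6 below it, while that of Slc26a3 runs from -1.61 to 2.50.

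The sodium-proton exchangers differed among themselves. Slc9a3 (NHE3), the apical exchanger of intestine and kidney, was counted 26 and 22 times in wild type against 305 and 356 times in knockout, or 1.05 and 1.15 CPM versus 13.7 and 14.7 CPM. The libraries of each genotype agreed within 0.12 log2 units, and the genotypes were far apart. The log2 fold change came to 3.69 ± 0.24 (SE, n = 2 per group), a fold of 12.9. It stayed between 3.58 and 3.75 under every alternative run, and without knockout 1 it was 3.69. Slc9a3 (ENSMUSG00000036123.8, chromosome 13 at 74121457 to 74169442, mm10) was close in both knockout libraries, unlike Cftr. Its difference from the wild-type mean was 3.54 log2 units in knockout 1 and 3.64 in knockout 2, where Cftr had 8.38 and 5.998. Its nearest patterns were those of Krtap5-5, Apol6 and Fam89a (0.0569, 0.157 and 0.221 log2 units). All 3 were low in wild type. Krtap5-5 was at 0 CPM in both wild-type libraries and at 0.9415 and 0.9498 CPM in knockout 1 and 2. Its wild-type level in the pattern was thus set by the prior count of 2, so its first rank does not show a fold change like that of Slc9a3. Fam89a was at 0.605 and 0.573 CPM versus 10.1 and 11.6 CPM.

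Slc9a4 (NHE4), a basolateral exchanger of parietal cells, was the most abundant per length of the 3 sodium-proton exchangers among the 9 genes. It was at 349 and 279.5 CPM in wild-type mucosa against 213.8 and 255.6 CPM in knockout mucosa, lower in both knockout libraries by a small margin. The log2 fold change came to -0.42 ± 0.22 (SE, n = 2 per group), with an interval from -1.03 to 0.19 that includes 0. Slc9a2 (NHE2), an exchanger whose loss in mice depletes parietal cells, was at 209 and 161 CPM versus 194 and 191 CPM. Its knockout values lay between the wild-type values, with a log2 fold change of 0.06 ± 0.20 and an interval from -0.51 to 0.62. Slc9a4 and Slc9a2 are neighbours on the plus strand of chromosome 1 (mm10), at 40580081 to 40630725 and 40680574 to 40769273, with 49.8 kb between them. Per length, Slc9a4 was 2.56 and 2.65 times Slc9a2 in wild type versus 1.69 and 2.05 times in knockout.

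Of the summed CPM per kilobase of these 3 exchangers, Slc9a4 made up 71.7% and 72.5% in wild type versus 60.7% and 65.1% in knockout. Slc9a3 made up 0.179% and 0.246% in wild type against 3.22% and 3.1%. Even so, Slc9a2 exceeded Slc9a3 by 11.2 and 10.2 times per length in knockout, after 157 and 111 times in wild type. The order Slc9a4, Slc9a2, Slc9a3 held in all 4 libraries.

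Of the 10 parietal cell markers, 9 were lower without overlap, where 23.8% of all genes were, as were Slc9a4, Slc12a2 and Slc26a6. The 10 summed to 20030 and 20750 CPM in the wild-type libraries and to 1953 and 8160 CPM in knockout 1 and 2. Gif, which is also summed in the chief cell list, overlapped at 631 and 2164 CPM versus 42.5 and 1268 CPM. Kcnq1, Kcne2, Clic6 and Slc26a7 are counted as lower both here and in the ion transport lists below. Atp4a, the catalytic subunit of the proton pump, was at 10500 and 10460 CPM versus 353 and 3331 CPM. Its log2 fold change was -2.51 ± 1.14 (SE), beside -0.42 for Slc9a4, -0.77 for Slc12a2 and -1.75 for Slc26a6, and the part of parietal cells in these was not tested. Chief cell markers summed to 64360 and 147800 CPM versus 2320 and 81390 CPM, with 0 of 5 free of overlap, and pit cell markers to 115000 and 76950 CPM versus 64800 and 51720 CPM, with 4 of 5 lower. The scaffold gene Slc9a3r1 (ENSMUSG00000020733.3, chromosome 11 at 115163341 to 115181181, mm10) did not follow them. It was at 135 and 111 CPM versus 133 and 117 CPM, with a log2 fold change of 0.02 ± 0.19 and an interval from -0.49 to 0.54.

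The apical anion exchangers were the lowest of the set per length in knockout. Slc26a6 (PAT1), a chloride-bicarbonate exchanger of many epithelia, was counted 549 and 407 times in wild type against 86 and 218 times in knockout, or 22.1 and 21.2 CPM versus 3.86 and 9.003 CPM. The wild-type libraries were nearly equal, both knockout libraries were lower, and knockout 1 was the lowest. The log2 fold change came to -1.75 ± 0.45 (SE, n = 2 per group), and without knockout 1 it was -1.31. The gene (ENSMUSG00000023259.16) lies on chromosome 9 at 108853283 to 108913049 (mm10). Its nearest patterns were those of Pcca, Mccc1 and Rbpjl (0.0439, 0.0474 and 0.0482 log2 units). Pcca, a mitochondrial carboxylase subunit, was at 82.4 and 82.9 CPM versus 14.1 and 34.8 CPM. The parietal marker sum, like Slc26a6, was lower in knockout 1 than in knockout 2.

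Slc26a3 (DRA), the chloride-bicarbonate exchanger of the intestine, was barely counted. Wild-type libraries held 23 and 9 counts of it and knockout libraries 29 and 15, or 0.928 and 0.469 CPM versus 1.3 and 0.619 CPM. The genotypes overlapped, and in each genotype the library numbered 1 was the higher. The log2 fold change came to 0.45 ± 0.75 (SE, n = 2 per group). The interval from -1.61 to 2.50 includes the value of Ano1. Counting error alone gave a ratio of summed counts from 0.806 to 2.12, a narrower range. Log2 CPM in the library numbered 2 minus that in the library numbered 1 was -0.87 in wild type and -0.97 in knockout. The gene (ENSMUSG00000001225.12) lies on chromosome 12 at 31390871 to 31473917 (mm10).

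**Figure D3:**
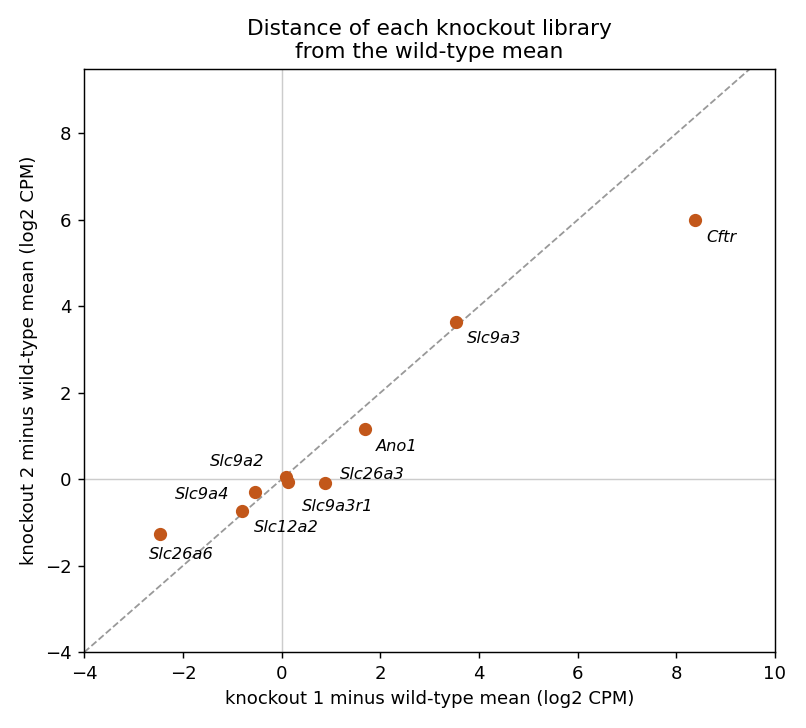
Difference of knockout 1 (x axis) and knockout 2 (y axis) from the wild-type mean in log2 CPM with a prior count of 2, one point per gene, with equal differences on the dashed line. Slc9a3 (3.54 and 3.64) and Slc12a2 (-0.81 and -0.73) lie near the line, while Cftr (8.38 and 5.998) and Slc26a6 (-2.46 and -1.26) differ more from wild type in knockout 1.

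Beyond the 9, 112 other genes of epithelial ion transport were listed by family, of which 85 passed the low-count filter. Slc26a5, Slc4a9 and Slc12a1 had no count in any library. Kcne3, Slc4a11, Guca2b, Ano4 and Vipr1 passed the filter only through the knockout libraries, and Best3 only through the wild-type ones. The former were higher without overlap and Best3 lower, and the counts below include them. In edgeR's quasi-likelihood test 0 of the 85 passed in either direction, where 0% of all genes did. At an unadjusted p of 0.05 the fit held 14 higher and 19 lower, where it held 15.9% of all genes in either direction. DESeq2 called 10 higher and 17 lower, where it called 4.14% and 3.43% of all genes. Without knockout 2, with a lone knockout library, edgeR called 19, where it called 5.29% of all genes. Without overlap, 23 were higher and 30 lower, where 26.3% and 23.8% of all genes were. The median log2 fold change was -0.10 against 0.00 over all genes.

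Of 5 other tested anion exchangers of the SLC26 family, 3 were lower and 1 higher without overlap, where 23.8% and 26.3% of all genes were. Their median log2 fold change was -1.46, and 0 passed edgeR's test. Slc26a9, a gastric chloride transporter, was at 425.6 and 282 CPM in wild-type mucosa against 78.6 and 111 CPM in knockout mucosa (log2 fold change -1.90 ± 0.33, edgeR adjusted p = 0.209). Slc26a7, of the parietal cell basolateral membrane, was at 70.3 and 67.0 CPM versus 2.65 and 18.1 CPM. The sulfate transporter gene Slc26a2 was at 154.6 and 102 CPM versus 1033 and 309 CPM, and Slc26a10 at 9.16 and 7.40 CPM versus 3.14 and 2.89 CPM. Slc26a6, Slc26a9 and Slc26a7 were all lower in both knockout libraries.

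Among 6 tested genes of the SLC4 family, 2 were higher and 2 lower without overlap, where 26.3% and 23.8% of all genes were. Slc4a2 (AE2), the basolateral anion exchanger of parietal cells, was at 751 and 660 CPM in wild-type mucosa against 167.5 and 290 CPM in knockout mucosa (log2 fold change -1.62 ± 0.35, edgeR adjusted p = 0.226). Slc4a4, a sodium-bicarbonate cotransporter gene, was at 64.1 and 52.4 CPM versus 44.4 and 33.8 CPM. The sodium-bicarbonate cotransporter gene Slc4a7 went the other way, at 49.6 and 50.9 CPM versus 106.9 and 80.7 CPM. Slc4a11 was at 0.242 and 0.521 CPM versus 21.5 and 1.53 CPM, and its log2 fold change of 4.92 went to 1.95 without knockout 1.

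Other members of the SLC9 and SLC12 families were also tested. Of 6 tested SLC9 genes, 1 was lower and 0 higher without overlap, where 23.8% and 26.3% of all genes were. Their median log2 fold change was -0.20. Of 5 tested SLC12 genes, 2 were lower and 1 higher without overlap, with a median of -0.54. The potassium-chloride cotransporter gene Slc12a7 was at 242 and 203.7 CPM versus 153 and 152 CPM. Slc12a8 was at 17.4 and 12.1 CPM versus 21.5 and 54.2 CPM.

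Of 19 other chloride channel genes tested, 6 were higher and 6 lower without overlap, where 26.3% and 23.8% of all genes were. Clic3 was at 10.5 and 8.595 CPM in wild-type mucosa against 44.4 and 33.1 CPM in knockout mucosa (log2 fold change 2.02 ± 0.22, edgeR adjusted p = 0.180). The anoctamins Ano10 and Ano9 were higher, at 36.6 and 29.2 CPM versus 64.0 and 52.6 CPM and at 24.6 and 16.3 CPM versus 34.8 and 30.0 CPM. Ano6, a further anoctamin, was lower, at 57.7 and 61.8 CPM versus 34.5 and 46.4 CPM. The endosomal chloride transporter gene Clcn3 was at 190 and 181 CPM versus 114 and 122 CPM, and Best3 had 0.646 and 0.521 CPM versus 0 and 0.0826 CPM.

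Of 15 potassium channel and sodium pump genes, 5 were higher and 6 lower without overlap, where 26.3% and 23.8% of all genes were. Kcne3, which encodes a partner subunit of Kcnq1 in chloride-secreting cells, was at 0.121 and 0.573 CPM in wild-type mucosa against 61.4 and 13.2 CPM in knockout mucosa (log2 fold change 6.80 ± 1.23, edgeR adjusted p = 0.210). As with Cftr, knockout 1 was several times higher than knockout 2, and without knockout 1 the value was 5.21. Kcnq1 itself was at 126 and 135 CPM versus 45.7 and 62.1 CPM. Kcnj16 was lower, at 561 and 451.5 CPM versus 12.5 and 103 CPM, whereas the two-pore channels Kcnk1 and Kcnk5 were higher, at 30.5 and 25.6 CPM versus 149 and 66.6 CPM and at 29.9 and 16.6 CPM versus 63.1 and 39.6 CPM. The sodium pump subunit Atp1b1 was at 1185 and 1105 CPM versus 597 and 672 CPM.

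Scaffold and control genes also went both ways. Of 7 scaffold genes tested, 1 was higher and 3 lower without overlap, where 26.3% and 23.8% of all genes were. Chp2, which encodes a calcineurin-like partner of sodium-proton exchangers, was at 8.11 and 4.48 CPM versus 26.9 and 21.1 CPM, and its relative Chp1 at 471.5 and 437 CPM versus 348.5 and 331 CPM. Ezr, which encodes the actin linker ezrin that binds Slc9a3r1, was at 1978 and 1552 CPM versus 1012 and 904 CPM. Gopc, which encodes a Golgi partner of CFTR, was at 33.2 and 31.5 CPM versus 30.6 and 30.3 CPM.

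Of 22 receptors and kinases, 7 were higher and 7 lower without overlap, where 26.3% and 23.8% of all genes were. Sgk1, a kinase gene induced by glucocorticoids that acts on ion channels and exchangers, was at 338 and 287.5 CPM in wild-type mucosa against 48.2 and 65.0 CPM in knockout mucosa (log2 fold change -2.47 ± 0.24, edgeR adjusted p = 0.178). Stk39 (SPAK), a kinase that activates NKCC1, was at 122 and 97.4 CPM versus 69.6 and 60.2 CPM, in the same direction as Slc12a2. Ahcyl2, a relative of the CFTR and bicarbonate transport regulator IRBIT, was at 359 and 327 CPM versus 183 and 162.5 CPM. Higher in both knockout libraries were the prostaglandin E2 receptor gene Ptger4 (8.63 and 10.1 CPM versus 22.4 and 21.7 CPM), the kinase gene Wnk2 (3.95 and 7.14 CPM versus 12.7 and 14.7 CPM) and the uroguanylin gene Guca2b. Guca2b, whose peptide opens CFTR through guanylate cyclase C in the intestine, was at 0.242 and 0.104 CPM versus 3.004 and 3.88 CPM. Its receptor gene Gucy2c was at 2.42 and 4.64 CPM versus 4.57 and 12.4 CPM, with overlap.

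**Figure D4:**
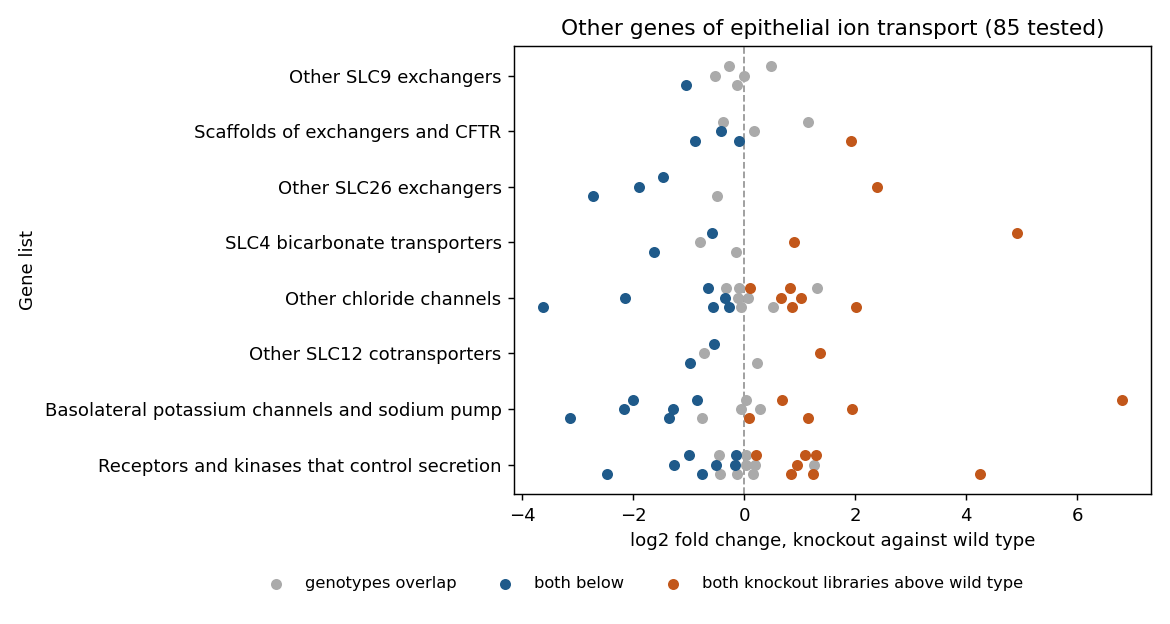
Log2 fold change in knockout against wild type of the 85 tested genes in 8 lists of ion transport, one point per gene, in orange where both knockout libraries lay above both wild-type libraries, in blue where both lay below and in grey where the genotypes overlapped. The SLC26 list has 3 of 5 genes below, and the highest point is Kcne3 at 6.80.

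**Figure D5:**
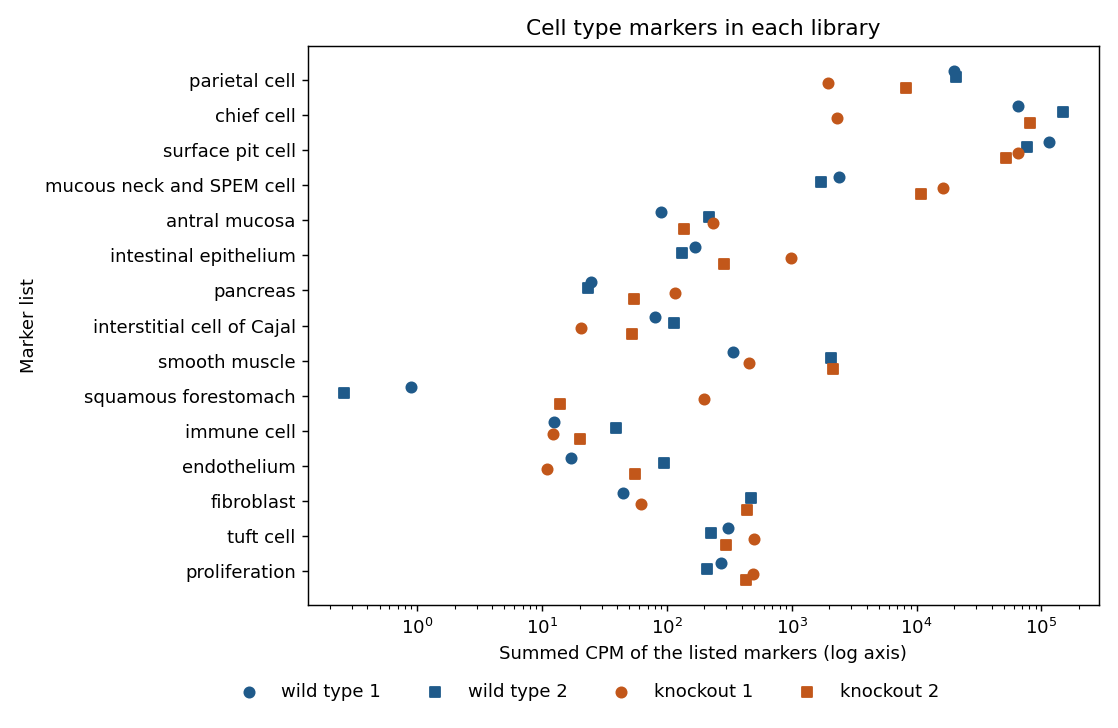
Summed CPM (log axis) of 15 marker lists in wild type 1 and 2 (blue) and knockout 1 and 2 (orange), with circles for the libraries numbered 1 and squares for those numbered 2. Parietal markers lie lower and mucous neck and SPEM markers higher in both knockout libraries, while fibroblast, endothelial and smooth muscle markers separate the libraries numbered 1 from those numbered 2.

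Among the other marker lists, tuft cell markers summed to 306.5 and 224 CPM versus 500.1 and 298 CPM, with 4 of 5 higher without overlap. Proliferation markers summed to 271 and 208.5 CPM versus 493 and 431 CPM, with 7 of 7 higher, where 26.3% of all genes were. The antral list summed to 89.4 and 218 CPM versus 235 and 136 CPM, most of it Sst except in knockout 1. Immune markers summed to 12.5 and 39.0 CPM versus 12.3 and 20.1 CPM, and endothelial markers to 17.02 and 95.5 CPM versus 10.98 and 55.5 CPM. The part of any of these cells in the transport genes was not tested.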

How the data were processed

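Gastric corpus mucosa of Muc6 +/+ and Muc6 -/- mice was sequenced, with 2 libraries per genotype and 20327745 to 27946423 counts each. Per the labels' protocols, the mRNA kit was stranded, and per the submitters' processing notes the build was mm10. Aligner, counter, annotation and any use of strand are not given in the sources used. Antisense genes annotated opposite Cftr, Slc9a2, Slc9a4 and Ano1 thus cannot be told apart from them.

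The authors deposited estimated counts per gene, with column totals that differ. Values above 0 had decimals in 35.0% of cases, and all were rounded. Of 34866 rows, 34582 matched GENCODE M21 by identifier, which gave symbols, positions and exon lengths. Promoter sequences come from RefSeq (GRCm38.p6), used for 6 members. Libraries of a genotype were not duplicates (chi-square per degree of freedom of 139 and 272).

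Genotypes were compared with edgeR 4.0.16 in R 4.3.3 (quasi-likelihood, robust, TMM, filterByExpr) over 14067 genes, adjusted by Benjamini-Hochberg to a threshold of 0.05. The SE is the log2 fold change divided by the square root of F. Centred patterns use log2 CPM with a prior count of 2. With 2 against 2, an exact permutation test cannot go below 0.33. Alternatives were DESeq2 1.42.0, limma 3.58.1 (voom), other scalings and filters, non-robust dispersion, a block for the library number, and each library left out.

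The members and lists were chosen with earlier results of these data known. Named were Muc6, the 9 members, in each ion transport list up to 3 genes per direction with the smallest p among those averaging 10 or more counts in the higher genotype without overlap, and the 3 nearest patterns per member. Marker genes and Gucy2c were named after their values were seen. Some genes that the rule takes are not reported here.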

Additional observations from a re-analysis of the deposited data

How the results depend on the processing

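No gene passed edgeR's adjusted threshold in either direction with all libraries. Without the filter 5 genes passed as higher and 4 as lower, and with DESeq2 571 and 473, of which 5 were members, and 27 of the other transport genes passed. The cause was not tested. Leaving out 1 library gave 0 to 302 genes called higher, 0 to 442 lower, 0 to 4 members and 0 to 19 other transport genes, and the highest values were all without knockout 2. Members higher without overlap numbered 3 to 6 and lower 3 to 5, with the highest without wild type 1 and without wild type 2. Fewer values then have to be cleared.

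Among the named genes, direction turned for 3 members, whose intervals all include 0. Slc9a3r1 was at -0.013 without the filter. With 1 library left out, Slc26a3 ran from -0.21 (without knockout 1) to 1.02, Slc9a2 from -0.12 (without wild type 2) to 0.26, and Slc9a3r1 from -0.11 (without wild type 2 or knockout 1) to 0.18. Cftr ran from 6.29 to 8.67, Ano1 from 1.12 to 1.65, Slc12a2 from -0.86 to -0.71, Slc26a6 from -2.54 to -1.31 and Slc9a4 from -0.60 to -0.25 over the alternatives.

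The labels do not say that equal numbers pair the libraries. Deviations of same-numbered libraries correlated across genes at 0.528, with 2 pairs. With the number as a block, 0 genes were called, and Cftr was at 7.91, Slc9a3 at 3.69 and Slc26a6 at -1.86.

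Depth limits the fold change of Cftr, whose base in wild type is 8 and 5 counts. Slc26a3 had 9 to 29 counts per library, and its fitted interval was wider than counting error alone gave.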
